A study of Mus musculus with 2 samples.

Results

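Cells that carried both glucagon (Gcg) and pancreatic polypeptide (Ppy) RNA were taken from a droplet single-cell RNA library of wild type (WT) mouse islets. A barcode was counted as a cell when its unique molecular identifiers (UMIs, which count captured transcripts) came to at least 10% of 56102, the 99th percentile of the 3000 deepest barcodes. It also needed at least 500 detected genes and at most 15% mitochondrial UMIs. Of 4541 such cells, 77 had at least 4% of their UMIs from Gcg and at least 4% from Ppy, with under 15% from Ins1 and Ins2 together and under 0.5% from Sst. These 77 cells, called Gcg+Ppy cells here, made up 1.70% of the cells (95% exact binomial interval 1.34 to 2.11%). They were set beside 364 cells with at least 8% Gcg and under 4% Ppy (the glucagon set) and 79 cells with at least 8% Ppy and under 4% Gcg (the PP set), under the same limits on Ins1, Ins2 and Sst. The cells were chosen by these hormone shares, so the levels of Gcg, Ppy, Ins1, Ins2 and Sst below are a description of the choice.

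The study compared islets of mice with a miR-203 transgene, placed in beta cells by the labels, with islets of WT mice, with 1 library per genotype. The animals were males aged 8 weeks that had gone 12 hours without food before the islets were taken. All values here come from the WT library, and cells of the transgenic library were not analysed here. The labels do not say how many mice gave the WT library, and their preparation text names frozen islets, TRIZOL and a sort of intestinal goblet cells next to 10x Genomics 3′ v2 chemistry, which is at odds with islets as the tissue. The WT matrix held 118523180 UMIs. With 1 library no difference can be set against a spread between animals, so no test was made, and intervals (95%, exact) reflect counting error alone.

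Islet alpha cells make glucagon, which raises blood glucose between meals by acting on the liver, and PP cells (also called gamma cells) make pancreatic polypeptide, which acts on appetite and on the exocrine pancreas. Pancreatic polypeptide belongs with peptide YY and neuropeptide Y to a family of peptides that signal through Y receptors. In mouse islets peptide YY RNA is found in alpha and PP cells. Cells with more than 1 islet hormone are known from fetal islets and, for glucagon or peptide YY with pancreatic polypeptide, also from adult ones, and a droplet that captured several cells gives the same picture in sequencing data.

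In the mouse genome (GRCm38, GENCODE vM21) Gcg (ENSMUSG00000000394) lies on the minus strand of chromosome 2 from 62474530 to 62483650. Ppy (ENSMUSG00000017316) lies on the minus strand of chromosome 11 from 102099930 to 102101319, and Pyy (ENSMUSG00000017311) next to it on the same strand from 102106676 to 102107832, so that 5356 bases separate the neighbours. The sequence just before the start of each gene is shown because the neighbours Ppy and Pyy were high together in the Gcg+Ppy cells while Gcg is encoded elsewhere. The 250 bases before the start of each gene (RefSeq, GRCm38.p6, minus strand, 5′ to 3′) are given with every match to a TATA box, a homeodomain core or a forkhead core, on either strand, in capitals. The letters searched were TATAAA for the first, TAATTA for the homeodomain core and TGTTTAC for the forkhead core.
Gcg, chr2:62483654-62483903: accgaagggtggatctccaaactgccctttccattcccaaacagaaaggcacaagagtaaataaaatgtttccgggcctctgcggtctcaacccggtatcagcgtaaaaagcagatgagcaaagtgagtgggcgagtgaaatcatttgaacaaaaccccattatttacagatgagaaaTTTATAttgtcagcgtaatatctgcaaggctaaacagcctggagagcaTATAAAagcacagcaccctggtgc
Ppy, chr11:102101320-102101569: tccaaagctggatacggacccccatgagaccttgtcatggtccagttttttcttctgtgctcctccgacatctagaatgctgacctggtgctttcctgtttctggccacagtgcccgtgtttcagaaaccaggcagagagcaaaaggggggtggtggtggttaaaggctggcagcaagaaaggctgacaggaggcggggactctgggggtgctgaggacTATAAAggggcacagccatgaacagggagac
Pyy, chr11:102107833-102108082: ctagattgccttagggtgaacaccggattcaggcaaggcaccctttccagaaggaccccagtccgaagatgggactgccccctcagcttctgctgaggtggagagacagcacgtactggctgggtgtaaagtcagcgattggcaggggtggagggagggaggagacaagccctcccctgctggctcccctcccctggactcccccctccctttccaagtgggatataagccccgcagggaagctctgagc
TATAAA stood 24 bases before the start in Gcg and 31 bases before it in Ppy. Gcg had a further match on the other strand 72 bases before the start, and Pyy had no TATAAA in this window. Variants of these letters were not searched, and the Pyy window holds tataag near its end. The homeodomain and forkhead letters were in none of these windows. Over 27025 mouse genes with a RefSeq start, windows of the same length held TATAAA in 13.0%, TAATTA in 4.90% and TGTTTAC in 3.09% of cases. A match is a run of letters and says nothing of which factor binds there.

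By hormone content the Gcg+Ppy cells covered a continuous range. Gcg made up 14.2% of UMIs in the median Gcg+Ppy cell (lowest 4.16%, highest 37.0%), against 22.5% in the glucagon set and 0.260% in the PP set. Ppy made up 9.05% in the median Gcg+Ppy cell (lowest 4.18%, highest 34.2%), against 0.297% in the glucagon set and 36.9% in the PP set. Gcg exceeded Ppy in 48 of the 77 cells, Ppy was at least as high as Gcg in 29, and 34 cells held at least 8% of both. The 2 hormones together took a median 27.6% of the UMIs of Gcg+Ppy cells, against 23.1% in the glucagon set and 38.1% in the PP set. The Gcg limit fell between 4.16% inside and 3.74% outside, and the Ppy limit between 4.18% inside and 3.99% outside, so both cut through a sparse but unbroken stretch of cells. The insulin limit had 14.0% and 13.4% just inside, with the next cell at 4.04%, and 1 cell at 27.8% outside. For Sst, the highest cell inside was at 0.0780% and the nearest cell outside at 0.745%. Of the 453 cells low in insulin and Sst with at least 4% Gcg, the Gcg+Ppy cells were 17.0%, and of the 169 with at least 4% Ppy they were 45.6%.

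**Figure D1:**
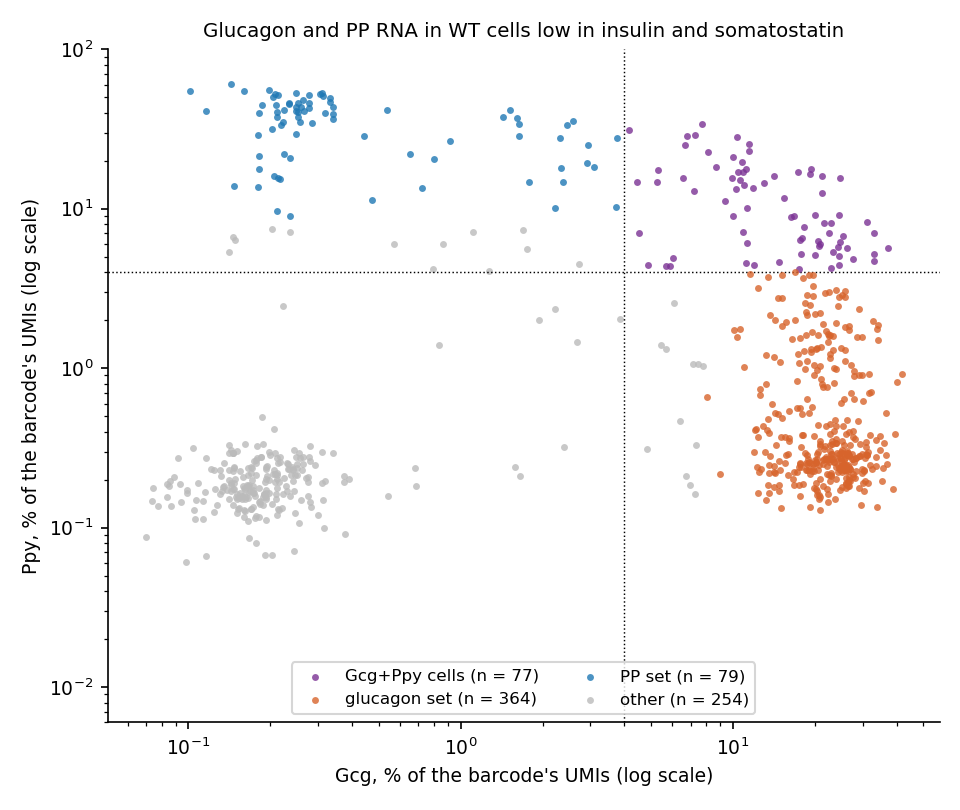
Each point is 1 of 774 WT cells under 15% insulin and 0.5% Sst UMIs, with its Gcg share on the horizontal and its Ppy share on the vertical axis, both in percent of the cell's UMIs on log scales, dotted lines at 4% and the 254 cells of no set in grey. The 77 Gcg+Ppy cells fill the upper right corner and run without a gap into the upper edge of the glucagon set (364 cells), whose dense part lies near a median of 0.297% Ppy.

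Depth was measured next, because a barcode that holds several cells would carry the UMIs of each. The median depth was 17163 UMIs in Gcg+Ppy cells (13130 to 27068 between the 10th and 90th percentiles), against 14650 (10676 to 21497) in the glucagon set and 19235 (10489 to 30552) in the PP set. The median was 1.17 times that of the glucagon set and 0.892 times that of the PP set. The medians of the glucagon and PP sets add up to 33885 UMIs, and 1 of the 77 Gcg+Ppy cells reached that sum. Without Gcg, Ppy and Pyy UMIs the medians were 10879 in Gcg+Ppy cells, 10670 in the glucagon set and 10000 in the PP set, whose sum of 20670 was reached by 4 Gcg+Ppy cells. In UMIs per cell, Gcg had a median of 2481 in Gcg+Ppy cells, against 3241 in the glucagon set and 56 in the PP set. Ppy had a median of 1727 UMIs in Gcg+Ppy cells, against 48 in the glucagon set and 7315 in the PP set. The summed medians would be 3297 Gcg and 7363 Ppy UMIs. Of the Gcg+Ppy cells 22 reached the sum for Gcg, 1 reached it for Ppy and 0 reached both. Detected genes had a median of 2993 in Gcg+Ppy cells, against 2921 in the glucagon set and 3069 in the PP set. With every cell thinned at random to the UMI minimum the medians were 1440 genes in Gcg+Ppy cells, 1571 in the glucagon set and 1361 in the PP set. Some Gcg+Ppy cells were nonetheless deep, with 20 above the 90th percentile of the glucagon set and 4 above that of the PP set. In the same library 34 of the 3519 cells with at least 15% insulin UMIs also held at least 4% Gcg, with a median of 24054 UMIs against 23217 in the others, and 18 held at least 4% Ppy. A doublet caller was not run, and how many Gcg+Ppy barcodes held more than 1 cell was not tested.

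Free RNA was measured in droplets without cells. In 589592 droplets of at most 200 UMIs, the insulin genes took 34.0% of UMIs, Gcg 2.19%, Ppy 1.41% and Pyy 0.486%. The Gcg+Ppy cells held 3.12% insulin UMIs in sum. If all of these came from free RNA of that composition, free RNA would be at most 9.18% of their UMIs and would bring at most 2009 CPM (UMIs per 1000000 of the summed UMIs) of Gcg, 1291 CPM of Ppy and 446 CPM of Pyy. The measured levels over the summed Gcg+Ppy cells were 160563 CPM for Gcg, 121418 CPM for Ppy and 60108 CPM for Pyy.

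Pyy, the neighbour of Ppy and the third peptide of these cells, was close to its level in the PP set. It made up a median 4.95% of UMIs in Gcg+Ppy cells (lowest 0.989%, highest 23.5%), against 1.24% in the glucagon set (10th to 90th percentile 0.199 to 4.02%) and 5.02% in the PP set (1.83 to 11.9%). Pyy reached at least 1% of UMIs in 76 of 77 Gcg+Ppy cells, against 212 of 364 cells of the glucagon set and 76 of 79 of the PP set. Of the Gcg+Ppy cells 49 lay above the 90th percentile of the glucagon set, and the ranges of all 3 sets overlapped. Over the summed cells, Pyy stood at 60108 CPM in Gcg+Ppy cells, 18663 CPM in the glucagon set and 71460 CPM in the PP set. Here and below a log2 ratio is the ratio of CPM less that of the median gene, whose own log2 ratio was -0.14 over the glucagon set and 0.09 over the PP set. For Pyy it was 1.83 (1.82 to 1.84) over the glucagon set and -0.34 (-0.35 to -0.33) over the PP set.

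Transthyretin (Ttr), a carrier of thyroid hormone and retinol that is abundant in alpha cells, lay between the sets. It made up a median 1.35% of UMIs in Gcg+Ppy cells (10th to 90th percentile 0.348 to 3.89%), against 3.26% in the glucagon set (1.11 to 6.65%) and 0.175% in the PP set (0.0808 to 0.402%). Of the Gcg+Ppy cells 38 lay above the highest cell of the PP set, and 43 lay above the 10th percentile of the glucagon set. The summed level was 17111 CPM in Gcg+Ppy cells, 37068 CPM in the glucagon set and 2546 CPM in the PP set.

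**Figure D2:**
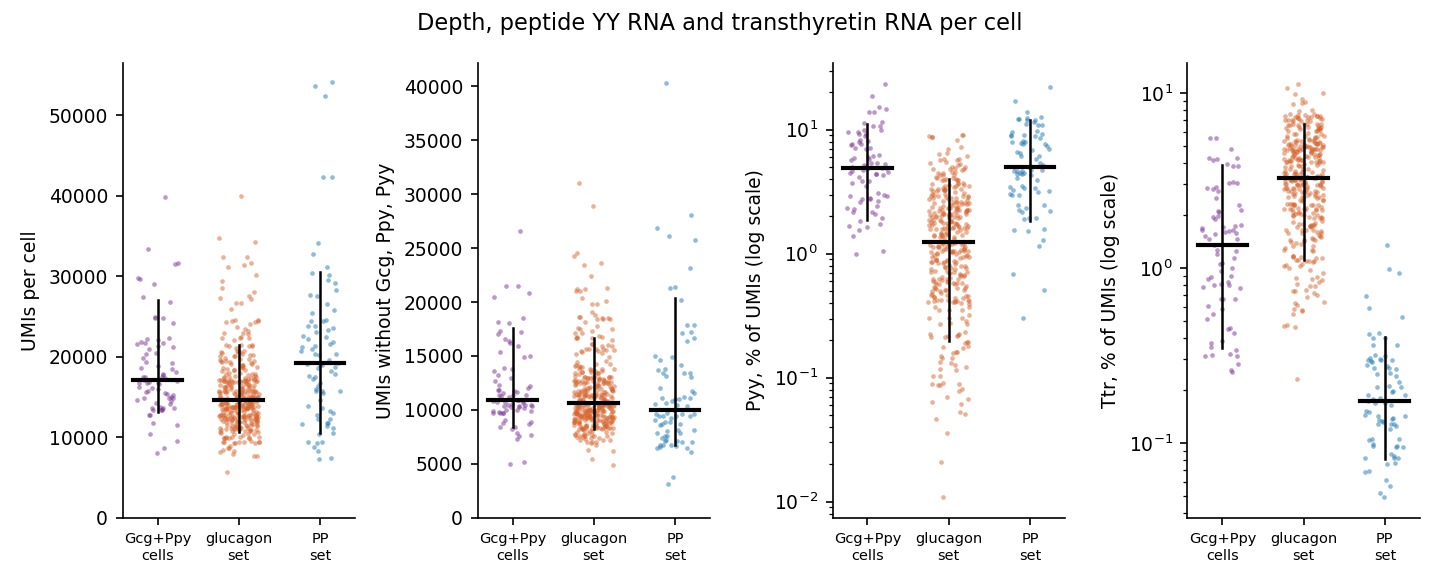
The panels show, per cell, total UMIs, UMIs without Gcg, Ppy and Pyy, the Pyy share and the Ttr share (both in percent of UMIs on log scales), with the 77 Gcg+Ppy cells on the left, then the glucagon and PP sets. Thick bars are medians and thin lines run from the 10th to the 90th percentile: the medians of UMIs without the peptides are nearly level (10879, 10670 and 10000), Pyy is near the PP set, and Ttr lies between the sets.

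Ordered by Ppy, the cells with at least 4% Gcg formed a gradient in which Pyy and Ttr ran opposite ways. In the 116 cells under 0.25% Ppy, Pyy had a median of 0.658% of UMIs and Ttr of 3.74%. In the 54 cells with 1 to 2% Ppy, the medians were 2.15% for Pyy and 2.77% for Ttr, and in the 32 cells with 2 to 4% they were 3.01% and 2.17% in the same order. Across the 4% limit the step in these medians was small. The 33 Gcg+Ppy cells with 4 to 8% Ppy had medians of 3.55% Pyy and 2.11% Ttr, and their median Gcg share of 20.5% was near that of the 32 cells below the limit, at 18.9%. Some other genes rose more from the bin just below the limit, with counting intervals apart. Folr1 went from 18.4 CPM (9 UMIs) to 56.9 CPM, Spp1 from 20.4 to 63.6 CPM and Sfrp5 from 77.7 to 176 CPM. For Spp1 and Sfrp5 that lower bin had the lowest level of all bins, so their rise does not show a step at the limit. Sfrp5 stood at 183 CPM in the cells under 0.25% Ppy, near its level at 4 to 8%. Spp1 stood at 45.2 CPM in the cells with 0.5 to 1% Ppy, with 53.1% of its UMIs in 1 barcode. Its intervals there and at 4 to 8% overlapped. Folr1 lay between 14.1 and 19.8 CPM in all bins under 4%. Iapp also rose, from 8210 to 10047 CPM, but 1 barcode held 20.04% of its UMIs in the bin of 4 to 8% Ppy. Whether Iapp rises without that barcode was not tested. The intervals of Irx1, Irx2, Tspan8, Higd1a, Rgs2, Pax6 and Nkx6-1 overlapped. The 23 cells with 8 to 16% Ppy had 4.92% Pyy and 1.06% Ttr, and the 21 cells with at least 16% had 6.97% Pyy and 0.664% Ttr. Median depth per bin ran between 13483 and 18094 UMIs, with the lowest value in the bin of least Ppy and the highest in the bin of most Ppy. As shares of 1 total, the hormones of a cell constrain each other, and the part of this in the pattern was not tested.

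**Figure D3:**
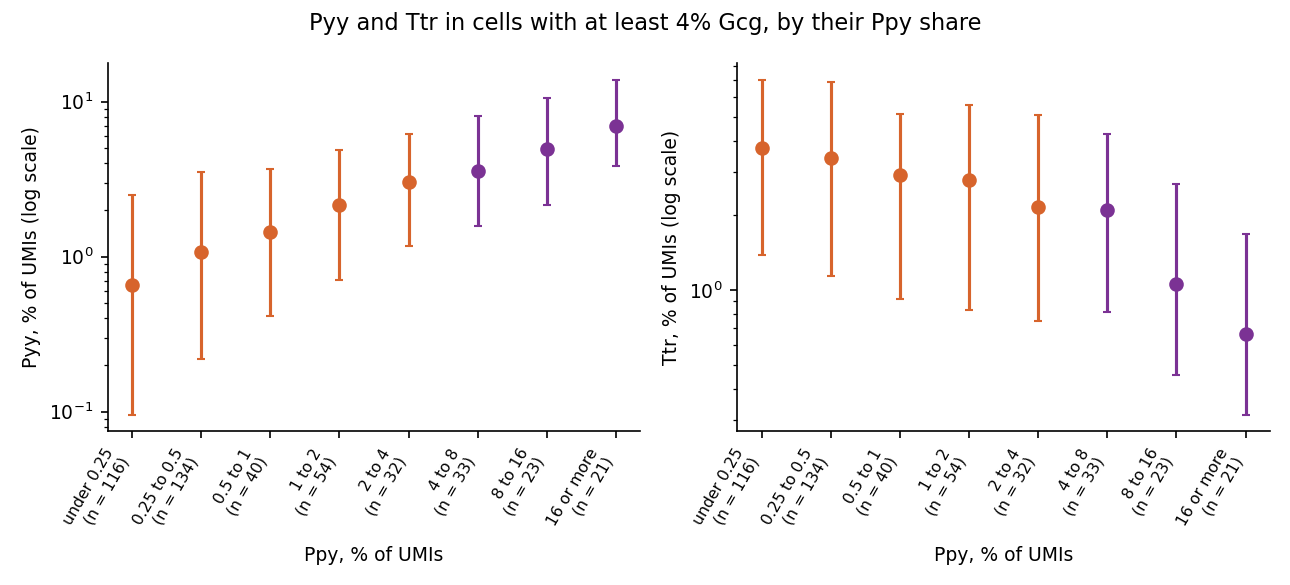
Points are median Pyy (left) and Ttr (right) shares, in percent of UMIs on log scales, of cells with at least 4% Gcg in bins of their Ppy share, and lines run from the 10th to the 90th percentile; purple marks bins at or above 4% Ppy and orange bins below it. Pyy medians run from 0.658% to 6.97% and Ttr medians from 3.74% to 0.664% without a break at the 4% limit.

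Genes that separate the comparison sets were also summed. These genes, and the PP-specific genes below, were picked by the values of the same comparison sets. That choice alone favours a place between the sets and a ratio under 1 to the own set, and its part was not tested. At least 4-fold higher in the glucagon set than in the PP set, with at least 50 CPM there, were 13 genes (the alpha-specific genes), among them Ttr, Irx1, Irx2, Higd1a, Slc30a8 and Sfrp5. Together they stood at 18318 CPM in Gcg+Ppy cells, 38731 CPM in the glucagon set and 2785 CPM in the PP set, and Ttr made up most of each sum. The ratio of Gcg+Ppy cells to the glucagon set was 0.473 (0.467 to 0.479). Without Ttr, a choice made after the values were seen, the other 12 genes summed to 1207 CPM in Gcg+Ppy cells, 1662 CPM in the glucagon set and 239 CPM in the PP set, a ratio of 0.726 (0.689 to 0.764) to the glucagon set. Measured as the way from the PP set to the glucagon set, the 13 genes lay between 24.9% for Ccdc86 and 88.8% for Slc30a8 in Gcg+Ppy cells.

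The matching PP-specific genes were 8 in the full PP set, and 6 of them, the haemoglobin genes, gastrin (Gast) and cholecystokinin (Cck), came from 4 barcodes. In 1 of these, haemoglobin took 33.5% of the UMIs, 2 had at least 0.5% Gast and 3 at least 0.5% Cck. The summed PP-specific genes stood at 160 CPM in Gcg+Ppy cells, 83.0 CPM in the glucagon set and 7180 CPM in the PP set, a ratio of 0.0223 to the PP set. Without those 4 barcodes, a choice made after their values were seen, the PP set held 75 cells and its specific genes were the tetraspanin Tspan8 and the folate receptor Folr1. These summed to 125 CPM in Gcg+Ppy cells, 31.5 CPM in the glucagon set and 294 CPM in that PP set, a ratio of 0.427 (0.357 to 0.509). No Gcg+Ppy cell was of that kind, with at most 0.0188% haemoglobin, 0.0105% Gast and 0.00960% Cck. Ratios to the PP set are given below for all 79 cells, with the value without the 4 barcodes where it differs by more than 1.5 times.

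Genes of alpha cells, a list of 20, had a median below the glucagon set and above the PP set. This list and those below were chosen with earlier results of these data known, so counts of their members are a description. Against the glucagon set 14 were measured at 20 CPM or more in either set, with 0 beyond 2-fold either way and a median log2 ratio of -0.35. Over all 4436 genes so measured, 15 (0.338%) were beyond 2-fold higher and 15 (0.338%) lower, 0.676% in all, with a median of 0 by construction. Against the PP set 12 were measured, and 8 were beyond 2-fold higher, with 0 lower and a median of 1.54. Over the 4363 genes of that comparison, 71 (1.63%) were beyond 2-fold higher and 73 (1.67%) lower, 3.3% in all. Without the 4 barcodes those shares were 1.77% and 1.45% of 4345 genes, 3.22% in all.

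Islet transcription factors did not all lie on the same side. The Iroquois factor Irx1 stood at 28.0 CPM in Gcg+Ppy cells, 53.5 CPM in the glucagon set and 3.03 CPM (5 UMIs) in the PP set, with log2 ratios of -0.79 (-1.30 to -0.31) and 3.12 (1.78 to 4.82). Its relative Irx2 stood at 32.9 CPM in Gcg+Ppy cells, 59.1 CPM in the glucagon set and 12.1 CPM in the PP set. Pax6, a factor of all islet endocrine cells, stood at 198 CPM in Gcg+Ppy cells, 142 CPM in the glucagon set and 161 CPM in the PP set. Nkx6-1, known as a beta cell factor, stood at 31.5 CPM in Gcg+Ppy cells, 24.6 CPM in the glucagon set and 80.1 CPM in the PP set, a log2 ratio of -1.44 (-1.96 to -0.94) over the PP set. Of the list of 25 islet transcription factors, 16 were measured against the glucagon set with 0 beyond 2-fold and a median of 0.15. Over all genes 0.676% were beyond 2-fold there. Against the PP set 14 were measured with a median of 0.13, where 3 were higher, Irx1 and Irx2 among them, and Nkx6-1 was lower. Over all genes of this comparison 1.63% were higher and 1.67% lower. The endocrine factors Isl1, Neurod1 and Insm1 had log2 ratios between -0.14 and 0.21 in both comparisons.

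Of the further alpha cell genes, some lay between the sets and others had their highest value in Gcg+Ppy cells. Higd1a, a mitochondrial protein induced by low oxygen, stood at 179 CPM in Gcg+Ppy cells, 248 CPM in the glucagon set and 27.3 CPM in the PP set. Sstr2, the somatostatin receptor through which delta cells restrain glucagon release, stood at 34.3 CPM in Gcg+Ppy cells, 24.3 CPM in the glucagon set and 4.25 CPM in the PP set. The amino acid transporter Slc7a2 stood at 52.5 CPM in Gcg+Ppy cells, 65.3 CPM in the glucagon set and 22.4 CPM in the PP set, and the kinase Wnk3 at 28.0, 22.7 and 7.89 CPM in that order. Sstr2 and Wnk3 thus had their highest value in the Gcg+Ppy cells, but their counting intervals overlap those of the glucagon set. With each cell thinned to the UMI minimum, Sstr2 was found in 13.0% of Gcg+Ppy cells and 12.6% of the glucagon set. Tmem27, Peg3 and the vitamin D binding protein Gc had log2 ratios between -0.37 and 0.59 in both comparisons. Irs4 and Fap, also of the list, had 0 UMIs in the Gcg+Ppy cells and in the glucagon set.

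Genes of PP cells, again a list of 20 with Ppy itself set aside, gave 12 measured genes in each comparison. Against the glucagon set 4 were beyond 2-fold higher (Pyy, Tspan8, Folr1 and Spp1) and 0 lower, with a median log2 ratio of 0.29. Over all 4436 genes of that comparison 0.338% were higher and 0.338% lower. The list was chosen with earlier results of these data known, and Tspan8 and Folr1 were also picked above by the comparison sets. Tspan8 stood at 58.1 CPM in Gcg+Ppy cells, 14.4 CPM in the glucagon set and 198 CPM in the PP set, with log2 ratios of 2.15 (1.70 to 2.61) and -1.86 (-2.22 to -1.50). Folr1 stood at 67.2 CPM in Gcg+Ppy cells, 17.1 CPM in the glucagon set and 104 CPM in the PP set, with log2 ratios of 2.12 (1.70 to 2.54) and -0.72 (-1.10 to -0.36). Spp1, which encodes osteopontin, stood at 90.4 CPM in Gcg+Ppy cells, 33.2 CPM in the glucagon set and 63.1 CPM in the PP set, and 1 barcode held 23.3% of its UMIs in Gcg+Ppy cells. Against the PP set Tspan8 was beyond 2-fold lower and the thymosin gene Tmsb15b1 beyond 2-fold higher, with a median of 0.00. Over all genes of that comparison 1.63% were higher and 1.67% lower. Tmsb15b1 and its close copy Tmsb15b2 may share reads, which makes both uncertain. Free RNA at the bound above would bring at most 2.73 CPM of Tspan8 and 2.11 CPM of Folr1.

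**Figure D4:**
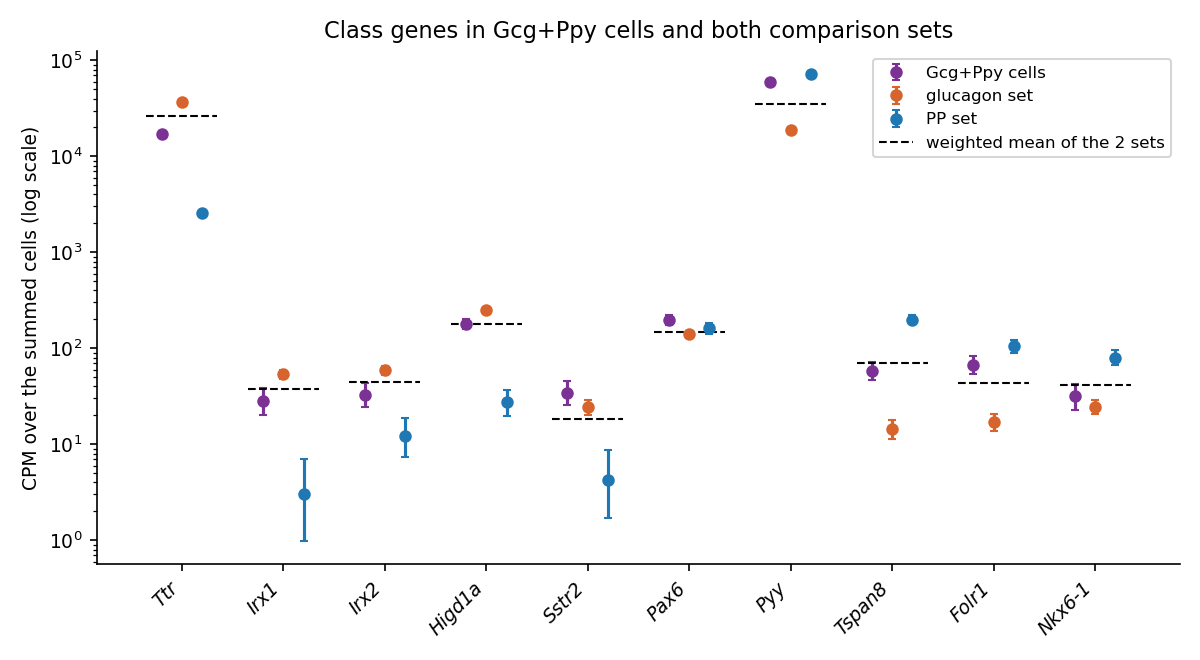
CPM over the summed cells on a log scale for 10 genes, with Gcg+Ppy cells (purple) left of the glucagon set (orange) and the PP set (blue) and 95% exact Poisson intervals for counting error. Dashed lines mark the mean of both sets weighted as Gcg would require (69.3% glucagon set). Pyy, Pax6, Sstr2 and Folr1 lie above their line, and Ttr, Irx1, Irx2, Tspan8 and Nkx6-1 lie below it. The intervals of Irx1, Tspan8 and Nkx6-1 include the line.

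The levels were set against a plain weighted mean of the 2 comparison sets. Gcg gives a weight of 69.3% for the glucagon set and Ppy a weight of 66.1%. Both hormones were used to choose the cells, so the weights and the ratios to the weighted mean are a description. At the weight from Gcg, Pyy would stand at 34877 CPM, and the measured level was 1.72 times that. Ttr was 0.647 times its weighted mean of 26466 CPM. Irx1 was 0.738 times and Irx2 0.737 times the weighted mean, and Higd1a was 0.989 times. Sstr2 was 1.89 times and Folr1 1.53 times the weighted mean, whereas Tspan8 was 0.822 times. The counting intervals of Irx1 and Tspan8 in Gcg+Ppy cells include their weighted mean. The weighted mean takes both sets as they are and carries no error for differences among their cells.

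Detection per cell was compared at equal depth, with each cell thinned to the UMI minimum for cells. A UMI of Irx1 or Irx2 was found in 35.1% of Gcg+Ppy cells (24.5 to 46.8%), against 45.1% of the glucagon set (39.9 to 50.3%) and 3.80% of the PP set (0.790 to 10.7%), so that the intervals of Gcg+Ppy cells and the glucagon set overlap. A UMI of Tspan8 or Folr1 was found in 36.4% of Gcg+Ppy cells (25.7 to 48.1%), against 17.6% of the glucagon set and 74.7% of the PP set. At least 1 gene of each group was found in the same cell in 14.3% of Gcg+Ppy cells (11 of 77, 7.35 to 24.1%), against 8.24% of the glucagon set (5.63 to 11.6%) and 3.80% of the PP set (0.790 to 10.7%). The intervals of these joint shares overlap. In 3171 cells with at least 30% insulin UMIs, under 1% Gcg and under 1% Ppy, the shares were 1.04%, 9.02% and 0.0631% in the same order of groups. These cells did not lack Folr1, which was found after thinning in 7.06% of them, against 10.2% of the glucagon set. Without thinning, genes of both groups were found in 44.2% of Gcg+Ppy cells, 28.0% of the glucagon set, 16.5% of the PP set and 1.39% of the cells high in insulin, whose depths differ.

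**Figure D5:**
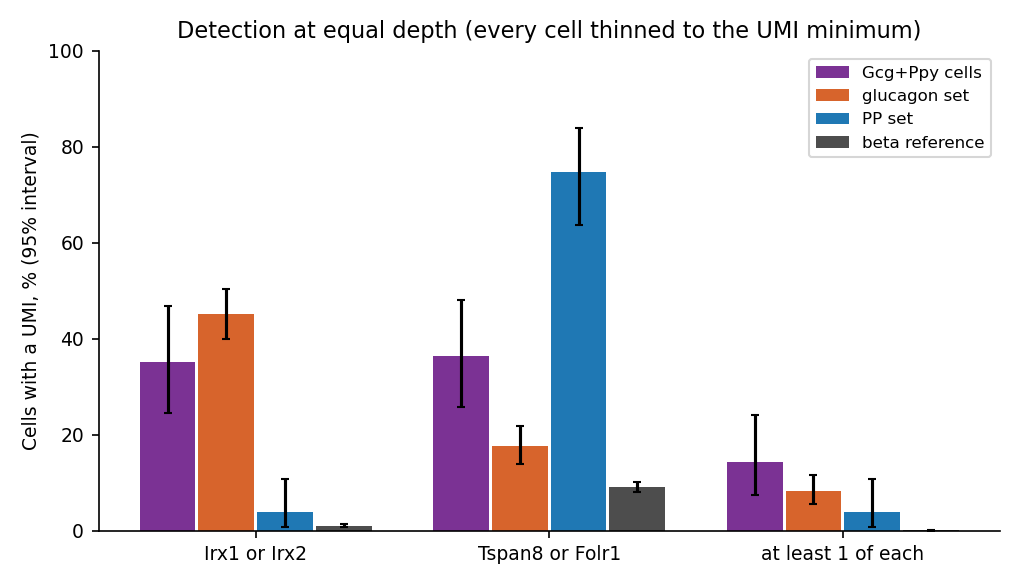
Bars give the percent of cells with at least 1 UMI after thinning every cell to the UMI minimum, for Irx1 or Irx2, for Tspan8 or Folr1, and for at least 1 gene of each group, with 95% exact binomial intervals. Gcg+Ppy cells lie between the glucagon and PP sets for each group alone (35.1% and 36.4%). The joint share is 14.3%, against 8.24% in the glucagon set and 3.80% in the PP set, with overlapping intervals. It is 0.0631% in the cells high in insulin, which were chosen with under 1% Gcg and under 1% Ppy.

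Within the Gcg+Ppy cells Ttr and Pyy differed with the leading hormone, and the counting intervals of several other class genes overlapped. In the 48 cells with more Gcg than Ppy, Ttr stood at 21810 CPM (21506 to 22118), against 9139 CPM (8884 to 9400) in the 29 cells with Ppy at or above Gcg. Pyy stood at 48484 CPM in the 48 cells and 79829 CPM in the 29 cells. Tmsb15b2 and Slc30a8 followed Ttr, with 305 and 239 CPM in the 48 cells and 166 and 121 CPM in the 29 cells, and their intervals did not overlap. Irx1 stood at 36.7 CPM (25.3 to 51.6) in the 48 cells and 13.2 CPM (5.32 to 27.2) in the 29 cells. Tspan8 stood at 46.8 CPM (33.7 to 63.2) in the 48 cells and 77.4 CPM (55.6 to 105) in the 29 cells, and Folr1 at 53.4 CPM (39.4 to 70.9) and 90.7 CPM (66.8 to 120) in the same order. The intervals of Irx1, Tspan8 and Folr1 overlap between the 48 and the 29 cells. Other class genes ran the opposite way, also with overlapping intervals. The alpha cell gene Sstr2 stood at 28.9 CPM (18.9 to 42.4) in the 48 cells and 43.4 CPM (27.5 to 65.2) in the 29 cells, and the PP cell gene Spp1 at 101 CPM (81.6 to 124) and 71.8 CPM (50.8 to 98.5) in that order. Pax6 (194 and 206 CPM) was about level between them, and so was median depth (16693 and 17810 UMIs).

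Beyond the class lists few genes set the Gcg+Ppy cells apart from the glucagon set. Among genes of at least 50 CPM, the highest log2 ratios after Tspan8, Folr1, Pyy and Spp1 belonged to Rgs2 (1.04, 0.84 to 1.24) and Rgs4 (0.84, 0.62 to 1.05), regulators of G protein signalling. Rgs2 stood at 206 CPM in Gcg+Ppy cells, 110 CPM in the glucagon set and 157 CPM in the PP set. Lrpprc (0.76), the granule protein Scg2 (0.72) and the glycosylation subunit Rpn2 (0.71) followed. The lowest were the collagen chaperone Serpinh1 (-1.33, -1.95 to -0.76), Sfn, which encodes a 14-3-3 protein (-1.22), and Ccdc86 (-1.09). Ttr (-0.97), the granule peptide precursor Vgf (-0.87), the small heat shock protein Hspb1 (-0.83), the linker histone H1f0 (-0.82), Cryba2 (-0.80), Irx1 (-0.79) and Ndrg1 (-0.75) followed. Hspb1 stood at 279 CPM in Gcg+Ppy cells, below 550 CPM in the glucagon set and 552 CPM in the PP set.

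Against the PP set the highest ratios were those of alpha-specific genes. Tmsb15b2 (2.86), Ttr (2.66) and Higd1a (2.62) led, followed by the secreted Wnt antagonist Sfrp5 (2.31), the complement gene C8b (1.90), the granule zinc transporter Slc30a8 (1.88, 1.52 to 2.26), Tmsb15b1 (1.73), the lipoprotein lipase Lpl (1.57) and Igfbp7 (1.37). Slc30a8 stood at 195 CPM in Gcg+Ppy cells, 214 CPM in the glucagon set and 49.8 CPM in the PP set. The lowest ratios were those of haemoglobin, Gast and Cck, carried by the 4 barcodes, and of the chemokine Ccl5 (-3.41), of whose UMIs 1 barcode of the PP set held 72.1%. Tspan8 (-1.86), Nkx6-1 (-1.44) and the growth factor Hbegf (-1.39) were next. Without the 4 barcodes the transcriptional inhibitor Id2 (-1.40), Lzts2 (-1.26), Fxyd3 (-1.26), Snhg18 (-1.18), Hspb1 (-1.13) and H1f0 (-1.02) completed the 10 lowest. Islet amyloid polypeptide (Iapp) stood at 8599 CPM in Gcg+Ppy cells, 6668 CPM in the glucagon set and 18674 CPM in the PP set, or 11955 CPM in that set without the 4 barcodes. Free RNA, bounded in the same way by insulin UMIs, would bring at most 5367 CPM of Iapp in Gcg+Ppy cells. The bound was 4639 CPM in the glucagon set and 6168 CPM in the full PP set, so much of the Iapp level may be free RNA.

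Of 17 hormones and co-secreted peptides, 6 were measured against the glucagon set, with Pyy beyond 2-fold higher, against 0.338% of all genes. Against the PP set 8 were measured, with Ttr and Vgf higher and Iapp, Gast and Cck lower. Without the 4 barcodes Iapp, Gast and Cck were not. Over all genes 1.63% were higher and 1.67% lower than in the full PP set.

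Secretory machinery was closer to the glucagon set than to the PP set. The 24 granule and prohormone processing genes summed to 16002 CPM in Gcg+Ppy cells, 17456 CPM in the glucagon set and 11861 CPM in the PP set. Of the 24, 20 were measured against the glucagon set with 0 beyond 2-fold and a median log2 ratio of 0.03. Against the PP set 20 were measured, and 3 were beyond 2-fold higher (Vgf, Slc30a8 and Syt5), against 1.63% of all genes, with a median of 0.07. Pcsk2, the convertase that releases glucagon from its precursor, stood at 3446 CPM in Gcg+Ppy cells, 3805 CPM in the glucagon set and 1780 CPM in the PP set. Chgb stood at 431 CPM in Gcg+Ppy cells, 297 CPM in the glucagon set and 684 CPM in the PP set, or 388 CPM in the PP set without the 4 barcodes, which puts the Gcg+Ppy cells above it. Scg2 stood at 809 CPM in Gcg+Ppy cells, 542 CPM in the glucagon set and 892 CPM in the PP set. Of 23 receptors, 3 were measured (Sstr2, Sstr3 and Ffar4), with medians of 0.18 over the glucagon set and -0.47 over the PP set, and Sstr2 was beyond 2-fold higher than in the PP set. Of 22 genes of channels and glucose handling, 9 were measured against the glucagon set with 0 beyond 2-fold, and 10 against the PP set, where Pdk4, Slc7a2 and Slc38a4 were higher and Scn3a was lower. Without the 4 barcodes Scn3a stood at 17.6 CPM in the PP set, under the 20 CPM minimum, and 0 of 9 genes were lower. The medians of this list were -0.17 over the glucagon set and -0.08 over the PP set. For these lists, the shares over all genes were 0.676% beyond 2-fold over the glucagon set. Over the PP set they were 1.63% higher and 1.67% lower.

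General programmes showed no member beyond 2-fold. Over all genes the shares beyond 2-fold were 0.676% over the glucagon set and 3.3% over the PP set. Of 18 immediate early genes 16 were measured in each comparison, with medians of -0.07 over the glucagon set and 0.18 over the PP set. Of 22 genes of the unfolded protein response 20 were measured over the glucagon set and 21 over the PP set, with medians of 0.02 over the glucagon set and 0.18 over the PP set. Of 20 cell cycle genes 3 and 2 were measured in the same order, with medians of -0.39 and 0.23, and Mki67 and Cdk1 had 0 UMIs in the Gcg+Ppy cells.

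Endothelial, mesenchymal and glial genes were low in all sets, and other lists were not. The 9 endothelial genes summed to 28.0 CPM in both Gcg+Ppy cells and the glucagon set and 30.3 CPM in the PP set, and the 10 mesenchymal and glial genes to 11.2, 12.0 and 14.0 CPM in that order. The 12 macrophage genes summed to 206 CPM in Gcg+Ppy cells, 261 CPM in the glucagon set and 199 CPM in the PP set. The 15 delta cell genes summed to 830 CPM in Gcg+Ppy cells, 1108 CPM in the glucagon set and 940 CPM in the PP set. In the reference cells high in insulin, defined above, the counting interval was 495 to 505 CPM. Of 3 measured delta cell genes 0 were beyond 2-fold. The 12 acinar and duct genes summed to 1390 CPM in Gcg+Ppy cells, 1691 CPM in the glucagon set and 1328 CPM in the PP set, against 710.3 CPM in the cells high in insulin, mostly from the keratins Krt8 and Krt18. Of these genes 4 were measured against the glucagon set, where Spp1 was beyond 2-fold higher and the protease precursor Ctrb1 (-1.71, -2.80 to -0.79) lower, and 3 against the PP set with 0 beyond 2-fold. The 12 epsilon and enteroendocrine genes summed to 45.5 CPM in Gcg+Ppy cells and 68.4 CPM in the glucagon set. In the PP set they summed to 3021 CPM, or 53.4 CPM without the 4 barcodes. The 20 beta cell genes, the insulin genes included, summed to 40335 CPM in Gcg+Ppy cells, 34159 CPM in the glucagon set and 55004 CPM in the PP set, against 567029 CPM in the cells high in insulin. Of these genes 8 were measured in each comparison, with 0 beyond 2-fold over the glucagon set. Over the PP set Slc30a8 was higher and Iapp and Nkx6-1 were lower, of which Iapp was not without the 4 barcodes, and Mafa had 0 UMIs in all 3 sets. For the lists of this paragraph, the shares over all genes were 0.338% higher and 0.338% lower over the glucagon set. Over the PP set they were 1.63% higher and 1.67% lower. Insulin took a median 2.77% of UMIs in Gcg+Ppy cells, against 2.58% in the glucagon set and 3.08% in the PP set. Mitochondrial UMIs had medians of 2.05% in Gcg+Ppy cells, 2.22% in the glucagon set and 1.89% in the PP set.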

How the data were processed

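The authors deposited raw UMI counts, 1 whole number for each gene in each droplet, as the values show. Per the submitters' processing notes, FastQC, Trimmomatic and build mm10 were used. How reads were aligned and counted, and on which annotation, is not given in the sources used here. That WT matrix was read whole, and of 4550 barcodes with at least the UMI minimum, 3 under 500 genes and 6 over 15% mitochondrial UMIs were left out. No doublet caller was run, and barcodes shared with the transgenic library were not counted because that matrix was not analysed here.

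Raw counts were added up within each set of cells and turned into CPM, with exact Poisson intervals (95%). Log2 ratios relative to the median gene used genes of at least 20 CPM in either set, without Gcg, Ppy, Ins1, Ins2 and Sst, with exact conditional binomial intervals. Beyond 2-fold means a log2 ratio of at least 1 either way. Thinning drew UMIs without replacement with a fixed seed. The ratio step was checked on simulated data. The Gcg+Ppy cells, the rule for named genes and the 17 gene lists were chosen with earlier results of these data known. The text names hormones, list members that are described, the 10 highest and 10 lowest ratios among genes of at least 50 CPM and 50 UMIs in the higher set, and panel genes, of which 2 are not reported here. Leaving 4 barcodes out of the PP set or Ttr out of the alpha-specific genes, the split by leading hormone and the bins of Ppy share were chosen after the data were seen. Tools were numpy 2.4.6, pandas 2.3.3, scipy 1.17.1 and matplotlib 3.10.9 in Python 3.11.15.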

Additional observations from a re-analysis of the deposited data

How the results depend on the processing

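Changing 1 choice at a time, the median depth over the glucagon set stayed between 1.11 and 1.18, and that over the PP set between 0.849 and 0.997, the last with barcodes above the 90th percentile of the glucagon set left out. The number of Gcg+Ppy cells was 92 at limits of 3% and 51 at 6%. Genes beyond 2-fold over the glucagon set (30) were 79 at limits of 6%, 59 without the deep barcodes, 266 after thinning, 84 with the total taken without hormone and mitochondrial UMIs, 8 at a minimum of 50 CPM and 962 with no minimum and a pseudocount of 1 CPM. Over the PP set (144) they were 337 without the deep barcodes, 731 after thinning, 347 on the total without hormones, 40 at 50 CPM and 1739 with no minimum. These counts thus depend on the minimum and on depth. The total without hormone and mitochondrial UMIs puts the median gene at log2 0.08 over the glucagon set and -0.20 over the PP set.

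The alpha-specific ratio of 0.473 was 0.387 at limits of 6%, 0.457 with under 1% of the other hormone in the comparison sets, 0.510 with no limit on insulin and Sst there, 0.519 without the deep barcodes, 0.483 after thinning and 0.544 on the total without hormones. The PP-specific ratio of 0.0223 has no stable value, because its genes change with the sets. Where Pyy passes the 4-fold limit it was 0.728 (limits of 3%), 0.769 (insulin under 5%), 0.850 (under 1% of the other hormone) and 0.638 (total without hormones). Otherwise it was 0.0316 with no limit on insulin and Sst, 0.0304 with cells weighted equally and 0.0301 with no minimum. With Ttr left out, a choice added after seeing the data, the alpha-specific ratio was 0.726. With choices added after seeing the data the PP-specific ratio was 0.427 without the 4 barcodes and 0.0560 for genes detected in at least 25% of the cells of their set. Thinning gives no ratio of depths. No paired analysis was possible because each genotype has 1 library, and no replicate could be left out. Genes near 20 CPM rest on about 30 UMIs in the Gcg+Ppy cells, and 1 library limits all values to these animals.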
